A study of Homo sapiens with 31 samples.

Results

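The genes followed here are the NF-kB pathway, its feedback regulators and the cytokines and chemokines that it controls, a set of 38 genes read in Caco-2 cells, a line from a human colorectal adenocarcinoma. They comprise 5 NF-kB subunits, 7 IkB inhibitors and feedback regulators, 6 survival and adaptor targets, 7 chemokines, 11 cytokines and 2 inflammatory enzymes. Each member was read from the probe set that named it and no other gene, and the brightest such probe set was used where there were several. By that rule 37 of the 38 members were measured, among 22395 genes in all, and BIRC3 was not analysed here.

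Caco-2 monolayers were kept for 21 days in a perfused gut-on-chip or on static Transwell inserts, and total RNA was hybridised to whole-transcript arrays after a final 6 h in one of 4 media. The chip groups received ZnO nanomaterial at 80 µg/mL, its metal-free dispersion medium (ZnO control), TiO2 nanomaterial at 100 µg/mL or its metal-free dispersion medium (TiO2 control). The Transwell groups received ZnO at 10 µg/mL, ZnO control, TiO2 at 50 µg/mL or TiO2 control, and the labels state that the doses were modelled to deposit equally in both systems. Each group had 4 arrays, except Transwell TiO2 with 3, which gave 31 arrays in 8 groups. The chip was perfused at 100 µL/h until exposure, and flow was stopped once the chamber had filled, so that all groups were without flow for the 6 h. The culture was 1 tumour-derived cell line of passage 29 to 45, without added immune or stromal cells in the labels. The labels do not say that arrays of a group came from separate cultures, so p-values measure the spread between these arrays, which may be technical.

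NF-kB is a family of dimeric transcription factors that IkB proteins hold in the cytoplasm until receptors for tumour necrosis factor, interleukin-1 or microbial products lead to IkB degradation. In the canonical arm the dimers contain p50 and RELA or REL, and in the non-canonical arm the kinase NIK drives processing of p100, the NFKB2 product, into p52, which pairs with RELB. Targets include the inhibitors themselves, which close a feedback loop, and chemokines and cytokines through which the intestinal epithelium recruits and instructs immune cells.

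The DNA element that NF-kB binds, the kappaB site, was looked for in RefSeq promoter windows of GRCh38.p14 that run from 250 bases before to 50 bases after each gene's start. A window was held for 28 of the 37 measured members, and 14 of these 28 (50.0%) contained at least 1 match of the kappaB consensus on either strand, against 2958 of 27305 promoters (10.8%). The members were chosen as genes of this pathway and genes that it controls, so their larger share is no independent support. The AP-1 motif TGANTCA, searched in the same way and not overlapping a kappaB match in any member, was present in 3 of 28 members, against 7.76% of all promoters. The windows of PTGS2, NFKB2, ICAM1 and TNF, all at least 2-fold higher in the chip in all 4 media, held 0 kappaB matches. The 7 stretches below are examples from members with a match upstream of the start, with kappaB matches in capitals. They come from feedback regulators, a subunit, a cytokine and paralogous chemokines. Their genes include CXCL1, which passed between chip and Transwell in no medium, and NFKB1, which was higher in none. Each is written 5′ to 3′ on the gene's strand.
NFKBIA: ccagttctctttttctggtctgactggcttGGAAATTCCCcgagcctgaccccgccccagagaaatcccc
TNFAIP3: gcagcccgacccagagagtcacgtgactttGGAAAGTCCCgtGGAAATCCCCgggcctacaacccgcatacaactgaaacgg
LTB: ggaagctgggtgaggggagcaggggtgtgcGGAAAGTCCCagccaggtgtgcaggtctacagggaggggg
NFKB1: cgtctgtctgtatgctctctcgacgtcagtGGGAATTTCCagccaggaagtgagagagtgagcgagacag
CXCL1: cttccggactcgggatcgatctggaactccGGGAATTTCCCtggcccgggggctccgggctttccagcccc
CXCL2: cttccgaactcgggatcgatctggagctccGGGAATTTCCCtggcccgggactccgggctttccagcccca
CXCL3: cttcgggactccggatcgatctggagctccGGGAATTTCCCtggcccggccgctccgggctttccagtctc

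These stretches lie at chr14:35404791-35404860 on the minus strand for NFKBIA, chr6:137867162-137867243 on the plus strand for TNFAIP3 and chr6:31582472-31582541 on the minus strand for LTB. That of NFKB1 lies at chr4:102501280-102501349 and that of CXCL1 at chr4:73869284-73869354, both on the plus strand, and those of CXCL2 and CXCL3 lie at chr4:74099233-74099303 and chr4:74038728-74038798 on the minus strand. All 7 lie upstream of the annotated start of their gene. The same match, GGGAATTTCC on one strand or the other, stood in 8 members, namely NFKB1, REL, NFKBIA, NFKBIZ, CXCL1, CXCL2, CXCL3 and CXCL5, and LTB and TNFAIP3 shared GGGACTTTCC. Its first base lay 79 bases before the start in CXCL1 and CXCL3, 78 in CXCL2, 81 in NFKBIA and 49 in NFKB1. A match describes the letters of a window and not a site in use, and of the members with a window it was present in 7 of the 13 that were higher in the chip in all 4 media and in 7 of the 15 others.

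**Figure D1:**
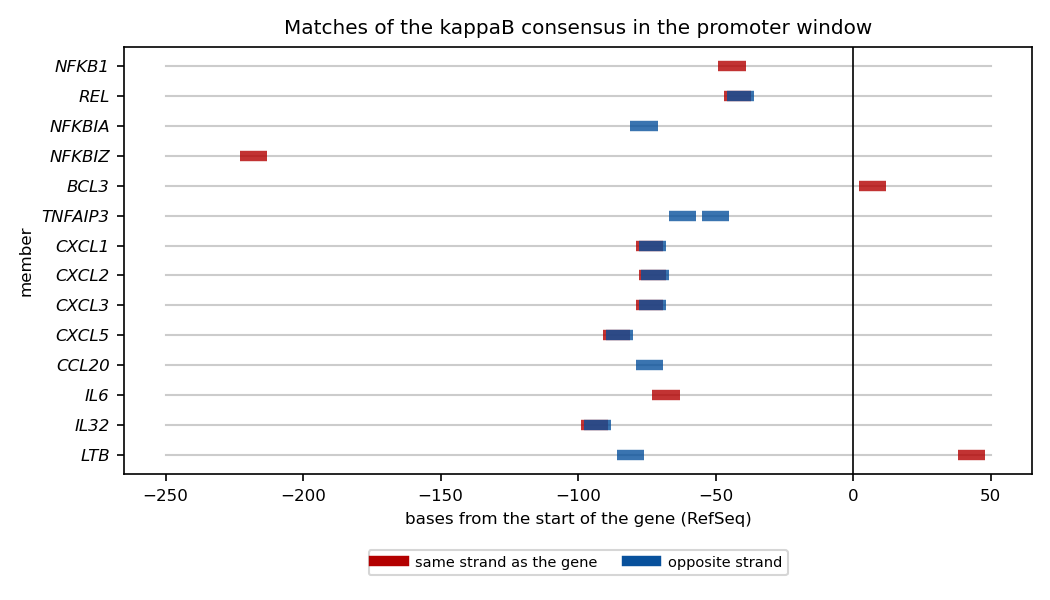
Position of each kappaB consensus match in the promoter windows of the 14 members that have one, in bases from the annotated start of the gene (x axis, linear; negative is upstream). Red bars are matches on the strand of the gene and blue bars matches on the opposite strand, which overlap where the element is symmetric; those of CXCL1, CXCL2 and CXCL3 start 77 to 79 bases upstream.

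Array medians lay between 3.24 and 3.33 on the log2 scale, and a gene that averaged less than every array median of a group is described as not shown above background in it. CXCL5, CXCL8, IL1RN, IL6 and IL15 were in that position in all 8 groups, IL1A in the 4 Transwell groups and TRAF1 in Transwell ZnO control, and no size is given for a difference that rests on such a group. The spread of the members between arrays of a group, as the root of their mean variance, was 0.33 to 0.46 log2 units in the chip groups and 0.18 to 0.23 on Transwell. Of the chip arrays, chip TiO2 replicate 4 and chip TiO2 control replicate 4 lay on the opposite side of 0 from the rest of their groups on principal components 2 and 3 over all genes, chip ZnO control replicate 3 did so on component 2, and chip ZnO replicate 1 and chip ZnO control replicate 4 on component 3. Without both replicates 4 the counts below were 23, 24, 23 and 29 members passed, in the order TiO2 control medium, ZnO control medium, after TiO2 and after ZnO. The members' mean deviation from their group mean was largest in chip TiO2 control replicate 2, at 0.29, and chip ZnO control replicate 3, at -0.27.

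The labelled cell type was checked with 14 epithelial markers, all of which averaged above the array medians in every group. These epithelial markers also passed between chip and Transwell, with 5 higher and 4 lower in TiO2 control medium, 3 and 6 in ZnO control medium, 3 and 4 after TiO2 and 2 and 5 after ZnO, and mean differences of -0.46 to -0.10 log2. Of all genes 22.9%, 27.2%, 18.2% and 29.8% passed in that order, a smaller share than that of these markers in each medium. Of 14 immune cell markers 6 to 8 per group lay below the array medians, and PTPRC, which marks leukocytes, averaged 1.57 to 1.68 in the chip groups and 1.48 to 1.60 on Transwell, below the array medians in all 8. The summed linear signal of the 14 ranged from 2436 to 3972 over chip arrays and from 1511 to 2304 over Transwell arrays. Of these markers CD68 passed in all 4 media (0.46 to 0.98 log2, chip minus Transwell) and so did CSF1R, the receptor of CSF1 (0.96 to 1.28), beside the cytokine results below. In all, 3 to 5 of the 14 immune cell markers were higher and 0 lower in a medium. Over all genes, 7.92% to 13.3% were higher and 10.2% to 16.5% lower in a medium. Of 9 stromal and endothelial markers 4 to 6 per group lay below the array medians and 0 were higher and 1 or 2 lower in the chip. The part of any of these in the results was not tested.

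Most calls on members came from chip against Transwell, which was tested separately in each of the 4 media, with no array in more than 1 of these comparisons. Most members that differed were higher in the chip. On the brightest probe set 8 members, PTGS2, NFKB2, ICAM1, TNF, NFKBIA, TNFAIP3, LTB and IER3, were at least 2-fold higher in all 4 media. For IER3 and LTB, dimmer probe sets showed smaller or unresolved differences, as given below. The share of all genes that were at least 2-fold higher in all 4 media was not counted. In TiO2 control medium 21 members were higher and 1 lower (limma, adjusted p below 0.05), where 22.9% of all genes passed (9.42% higher and 13.5% lower). In ZnO control medium 23 were higher and 2 lower, where 27.2% of all genes passed (12.3% higher and 14.9% lower). After TiO2 22 were higher and 1 lower, against 18.2% of all genes (7.92% higher and 10.2% lower), and after ZnO 22 were higher and 5 lower, against 29.8% (13.3% higher and 16.5% lower). The members that passed thus made up 22, 25, 23 and 27 of 37, a larger share than that of all genes in each medium. These counts hold CXCL8 in TiO2 control medium, IL6 in ZnO control medium and IL1RN and IL6 after TiO2, for which neither group was shown above background. With genes seldom above the array medians filtered out, 23, 25, 24 and 29 members passed, and 33.4%, 39.3%, 27.0% and 42.5% of all genes. The members were chosen with earlier results of these data known, so their shares are no independent support. The median difference over the 37 members, chip minus Transwell, was 0.53, 0.77, 0.66 and 0.98 log2 in the same order, where the median over all genes lay between -0.01 and 0.02. Fewer cells with a transcript and less of it per cell cannot be told apart in these bulk samples, nor can flow be told apart from the other properties of the device.

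Of the members 18 were higher in all 4 media, where 4.18% of all genes were, and IL1B alone was lower in all 4, where 5.5% were. The 18 were NFKB2, REL, RELB, NFKBIA, NFKBIE, BCL3, TNFAIP3, TNIP1, IER3, ICAM1, CXCL16, CCL20, IL1A, IL32, LTB, TNF, CSF1 and PTGS2. BIRC2, CXCL1, CXCL5, IL15 and NOS2 passed in none of the 4, and 0 members passed in both directions. Among members not below the array medians in either group, 31 in TiO2 control medium, 30 in ZnO control medium, 31 after TiO2 and 31 after ZnO, a difference of at least 2-fold that passed was reached by 13, 13, 12 and 17 in that order. Over all genes, those below the array medians included, the rule was met by 4.47%, 6.41%, 3.85% and 7.18% of 22395, and over all members by 13, 13, 12 and 17 of 37. The share among all genes not below the array medians was not counted. Of the 102 calls on members in all comparisons, 78 were kept whichever array was left out.

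Among the subunits, those of the non-canonical arm had the largest differences: NFKB2, which encodes p100, and RELB, its partner, were higher in the chip in all 4 media, as was REL, whereas NFKB1, which encodes p105 and p50, was lower in both ZnO media. NFKB2 in TiO2 control medium read 7.70, 7.95, 7.53 and 8.04 in the chip, against 6.16, 6.28, 6.45 and 6.20 on Transwell. NFKB2 in ZnO control medium read 7.95, 7.79, 7.69 and 8.51 in the chip, against 5.76, 6.01, 5.51 and 6.01 on Transwell. The groups did not overlap in either control medium. NFKB2 after TiO2 read 8.29, 7.67, 7.81 and 7.85 in the chip, against 6.77, 6.49 and 6.35 on Transwell. NFKB2 after ZnO read 8.63, 8.19, 8.30 and 8.45 in the chip, against 5.73, 5.93, 5.77 and 5.48 on Transwell. Every chip array lay above every Transwell array here too, and the Transwell arrays of the ZnO media lay below those of the TiO2 media. The NFKB2 differences were 1.53 in TiO2 control medium, 2.16 in ZnO control medium, 1.36 after TiO2 and 2.66 after ZnO (SE 0.17 to 0.18, limma adjusted p 9.82e-13 to 2.26e-06), that is 2.58- to 6.34-fold.

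RELB, the dimmest subunit, read 6.18, 6.02, 6.03 and 5.80 in the chip, against 4.98, 4.81, 4.57 and 4.89 on Transwell in TiO2 control medium. RELB in ZnO control medium read 6.12, 5.73, 5.67 and 6.30 in the chip, against 3.80, 4.51, 4.41 and 4.41 on Transwell. RELB after ZnO read 6.74, 6.36, 5.88 and 6.01 in the chip, against 4.29, 4.49, 4.41 and 4.51 on Transwell. The groups stood apart in each medium, and Transwell ZnO control replicate 1 was low within its group. Its differences were 1.20 in TiO2 control medium, 1.67 in ZnO control medium, 0.99 after TiO2 and 1.82 after ZnO (SE 0.18 to 0.19, adjusted p 3.82e-09 to 3.68e-04). REL, a canonical subunit, differed by 0.53 in TiO2 control medium, 0.70 in ZnO control medium, 0.56 after TiO2 and 0.93 after ZnO (SE 0.14 to 0.16, adjusted p 8.14e-06 to 0.0109), and its call after TiO2 was lost without Transwell TiO2 replicate 2 (0.44, adjusted p 0.0979).

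RELA, the transactivating canonical subunit and the brightest of the 5, read 8.72, 8.85, 8.48 and 8.52 in the chip, against 8.66, 8.63, 8.60 and 8.56 on Transwell in TiO2 control medium. RELA in ZnO control medium read 8.88, 8.54, 8.80 and 9.19 in the chip, against 8.52, 8.45, 8.40 and 8.48 on Transwell. The arrays overlapped in the first medium and not in the second. RELA was higher in ZnO control medium (0.39, SE 0.12, adjusted p 0.0158) and after ZnO (0.49, adjusted p 0.00253), and its differences of 0.03 in TiO2 control medium and 0.31 after TiO2 did not pass. The first of these calls was lost without chip ZnO control replicate 4 (0.28, adjusted p 0.101). NFKB1 read 7.49, 7.05, 7.11 and 7.48 in the chip, against 8.14, 8.04, 7.72 and 8.02 on Transwell in ZnO control medium, with no overlap and the chip arrays lower. It was lower in the chip by -0.70 log2 in that medium (SE 0.13, adjusted p 9.25e-05) and by -0.43 after ZnO (adjusted p 0.00927), with -0.09 in TiO2 control medium and -0.37 after TiO2, which did not pass. The difference after TiO2 passed without chip TiO2 replicate 1 (-0.43, adjusted p 0.0439) and under 4 of the other alternatives.

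Of the 7 inhibitors and feedback regulators 5 were higher in the chip in all 4 media: NFKBIA, which encodes IkBα, NFKBIE, which encodes IkBε, BCL3, a nuclear IkB that binds p50 and p52, TNFAIP3, which encodes the ubiquitin-editing enzyme A20, and TNIP1, which encodes a protein that binds A20. NFKBIA in TiO2 control medium read 8.77, 9.27, 8.91 and 8.40 in the chip, against 6.98, 7.10, 7.40 and 6.98 on Transwell. NFKBIA in ZnO control medium read 8.66, 9.21, 8.41 and 8.57 in the chip, against 6.80, 6.71, 6.86 and 6.63 on Transwell. The lowest chip array lay above the highest Transwell array in both. NFKBIA after TiO2 read 8.97, 8.34, 9.02 and 8.78 in the chip, against 7.10, 7.04 and 7.10 on Transwell. NFKBIA after ZnO read 8.94, 8.66, 8.25 and 8.76 in the chip, against 6.67, 7.02, 6.78 and 7.12 on Transwell. The groups did not overlap after either exposure. The NFKBIA differences were 1.72 in TiO2 control medium, 1.96 in ZnO control medium, 1.70 after TiO2 and 1.76 after ZnO (SE 0.18 to 0.19, limma adjusted p 1.67e-09 to 2.49e-07), or 3.25- to 3.9-fold.

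TNFAIP3, the brightest of the feedback regulators, read 9.62, 9.75, 9.58 and 9.20 in the chip, against 7.99, 8.28, 8.20 and 8.21 on Transwell in TiO2 control medium. TNFAIP3 in ZnO control medium read 9.17, 10.01, 9.15 and 9.53 in the chip, against 7.51, 7.68, 7.74 and 7.74 on Transwell. The chip arrays all lay above the Transwell arrays, by a gap wider than the range within any of the 4 groups. TNFAIP3 after TiO2 read 10.07, 9.50, 9.58 and 9.84 in the chip, against 8.25, 8.15 and 8.25 on Transwell. TNFAIP3 after ZnO read 9.68, 9.61, 8.94 and 9.63 in the chip, against 7.66, 7.73, 7.68 and 7.34 on Transwell. Chip ZnO replicate 3 and Transwell ZnO replicate 4 were each low within their group, and the groups remained apart. The TNFAIP3 differences were 1.37 in TiO2 control medium, 1.80 in ZnO control medium, 1.53 after TiO2 and 1.86 after ZnO (SE 0.17 to 0.19, adjusted p 1.39e-09 to 6.95e-07).

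TNIP1 read 8.47, 8.18, 8.17 and 8.70 in the chip, against 7.15, 6.99, 7.16 and 7.16 on Transwell in ZnO control medium. TNIP1 after ZnO read 9.04, 8.72, 8.18 and 8.33 in the chip, against 6.95, 7.15, 7.35 and 7.01 on Transwell. Both pairs of groups stood apart. TNIP1 differed by 0.996 in TiO2 control medium, 1.27 in ZnO control medium, 0.75 after TiO2 and 1.45 after ZnO (SE 0.17 to 0.18, adjusted p 6.45e-08 to 0.00304). NFKBIE, the dimmest of the 7, read 6.81, 6.72, 6.39 and 6.13 in the chip, against 5.85, 5.94, 5.29 and 5.90 on Transwell in TiO2 control medium and its groups stood apart in all 4 media. NFKBIE differed by 0.77 in TiO2 control medium, 0.65 in ZnO control medium, 0.86 after TiO2 and 1.31 after ZnO (SE 0.18 to 0.20, adjusted p 1.52e-06 to 0.00675), and BCL3 by 0.51 in TiO2 control medium, 0.88 in ZnO control medium, 1.04 after TiO2 and 0.98 after ZnO (SE 0.16 to 0.17, adjusted p 1.19e-05 to 0.0167). The call was lost for BCL3 in TiO2 control medium without either of Transwell TiO2 control replicate 2 and chip TiO2 control replicate 2 (0.36 to 0.43, adjusted p 0.0693 to 0.103) and for NFKBIE in ZnO control medium without chip ZnO control replicate 4 (0.47, adjusted p 0.0513).

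NFKBIB, which encodes IkBβ, was higher in 3 of the 4 media, with differences of 0.51 in TiO2 control medium, 0.24 in ZnO control medium, 0.78 after TiO2 and 0.38 after ZnO, of which that in ZnO control medium did not pass. NFKBIZ, which encodes the nuclear protein IkBζ, had differences of -0.24 in TiO2 control medium, -0.17 in ZnO control medium, -0.38 after TiO2 and -0.52 after ZnO, and it was lower in the chip after ZnO alone (adjusted p 0.0191). Its sign in the other 3 media was the same, and none of those differences passed. The calls after ZnO were lost for NFKBIB after ZnO without either of Transwell ZnO replicate 1 and chip ZnO replicate 3 (0.30, adjusted p 0.0599 to 0.0619) and for NFKBIZ after ZnO without any 1 of Transwell ZnO replicates 3 and 4 and chip ZnO replicates 3 and 4 (-0.47 to -0.41, adjusted p 0.0563 to 0.0869). Between an exposure and its own control medium the chip effect differed past the test for 0 of the 7 feedback regulators, for ZnO and for TiO2. Between the 2 control media it did so for 0 of them as well. The chip effect after ZnO was not tested against that after TiO2.

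Of the survival and adaptor targets, ICAM1, the adhesion molecule that binds leukocyte integrins, and IER3, an early response gene tied to cell survival, were higher in the chip in all 4 media. ICAM1, the brightest of this group, read 9.40, 10.38, 9.54 and 9.28 in the chip, against 8.19, 7.99, 7.82 and 7.96 on Transwell in TiO2 control medium. ICAM1 in ZnO control medium read 9.74, 9.70, 9.19 and 9.99 in the chip, against 7.60, 7.38, 7.52 and 7.62 on Transwell. The chip groups stood clear of the Transwell groups, and chip TiO2 control replicate 2 was the highest array. ICAM1 after TiO2 read 9.96, 9.40, 9.57 and 9.60 in the chip, against 8.05, 8.04 and 8.09 on Transwell. ICAM1 after ZnO read 10.16, 9.69, 9.57 and 9.91 in the chip, against 7.52, 7.46, 7.35 and 7.25 on Transwell. There was no overlap, and the Transwell arrays were closely grouped. The ICAM1 differences were 1.66 in TiO2 control medium, 2.13 in ZnO control medium, 1.57 after TiO2 and 2.44 after ZnO (SE 0.18 to 0.20, limma adjusted p 2.97e-11 to 1.02e-06), or 2.97- to 5.42-fold.

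IER3 read 8.61, 8.88, 8.36 and 9.01 in the chip, against 7.60, 7.12, 7.34 and 7.22 on Transwell in TiO2 control medium. IER3 in ZnO control medium read 8.89, 8.80, 8.65 and 8.99 in the chip, against 7.10, 7.11, 7.39 and 7.48 on Transwell. IER3 after TiO2 read 9.02, 8.76, 8.86 and 9.18 in the chip, against 7.25, 7.27 and 7.20 on Transwell. The groups did not overlap in any medium, and this gene had the smallest adjusted p of the members in both TiO2 media. IER3 differed by 1.40 in TiO2 control medium, 1.56 in ZnO control medium, 1.71 after TiO2 and 1.42 after ZnO (SE 0.14 to 0.15, adjusted p 1.31e-09 to 2.33e-08), and 10 probe sets name it, of which the brightest was read. The lowest correlation between them over the 31 arrays was 0.765. The dimmest averaged 5.45 in chip TiO2 control, against 5.06 on Transwell, and 5.59 in chip ZnO, against 4.79 on Transwell. These dimmest probe sets reached 2-fold in no medium, whereas the brighter ones did in each. TNFAIP2, a TNF-induced gene, read 5.36, 5.33, 5.05 and 5.35 in the chip, against 3.82, 4.25, 3.94 and 3.92 on Transwell after ZnO. TNFAIP2 passed in both ZnO media, with differences of 0.50 in TiO2 control medium, 1.11 in ZnO control medium, 0.55 after TiO2 and 1.29 after ZnO (SE 0.19 to 0.21), and the groups were apart in the TiO2 media too, where it did not pass. It passed after TiO2 without any 1 of chip TiO2 replicates 2, 3 and 4 (0.63 to 0.66, adjusted p 0.0364 to 0.0478) and in TiO2 control medium without chip TiO2 control replicate 3 (0.59, adjusted p 0.0385).

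TRAF1, an adaptor of TNF receptors and the dimmest of this group, read 3.57, 3.84, 3.53 and 3.77 in the chip, against 3.33, 3.09, 3.19 and 3.29 on Transwell in ZnO control medium. The Transwell mean of 3.22 was not shown above background there, so the size of the difference was not resolved. It was higher there (adjusted p 0.049) and did not pass in the other media, where its differences were 0.12 in TiO2 control medium, 0.31 after TiO2 and 0.44 after ZnO. That call was not kept without every array in turn. It was lost for TRAF1 in ZnO control medium without any 1 of Transwell ZnO control replicates 1, 2, 3 and 4 and chip ZnO control replicates 1, 2 and 4 (adjusted p 0.057 to 0.129). The difference after ZnO passed without chip ZnO replicate 4 (0.53, adjusted p 0.0306). BIRC2, which encodes a ubiquitin ligase of the IAP family, passed in no medium, with differences of 0.20 in TiO2 control medium, 0.18 in ZnO control medium, 0.30 after TiO2 and 0.16 after ZnO and 95% intervals of -0.05 to 0.45 in TiO2 control medium and -0.09 to 0.41 after ZnO.

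**Figure D2:**
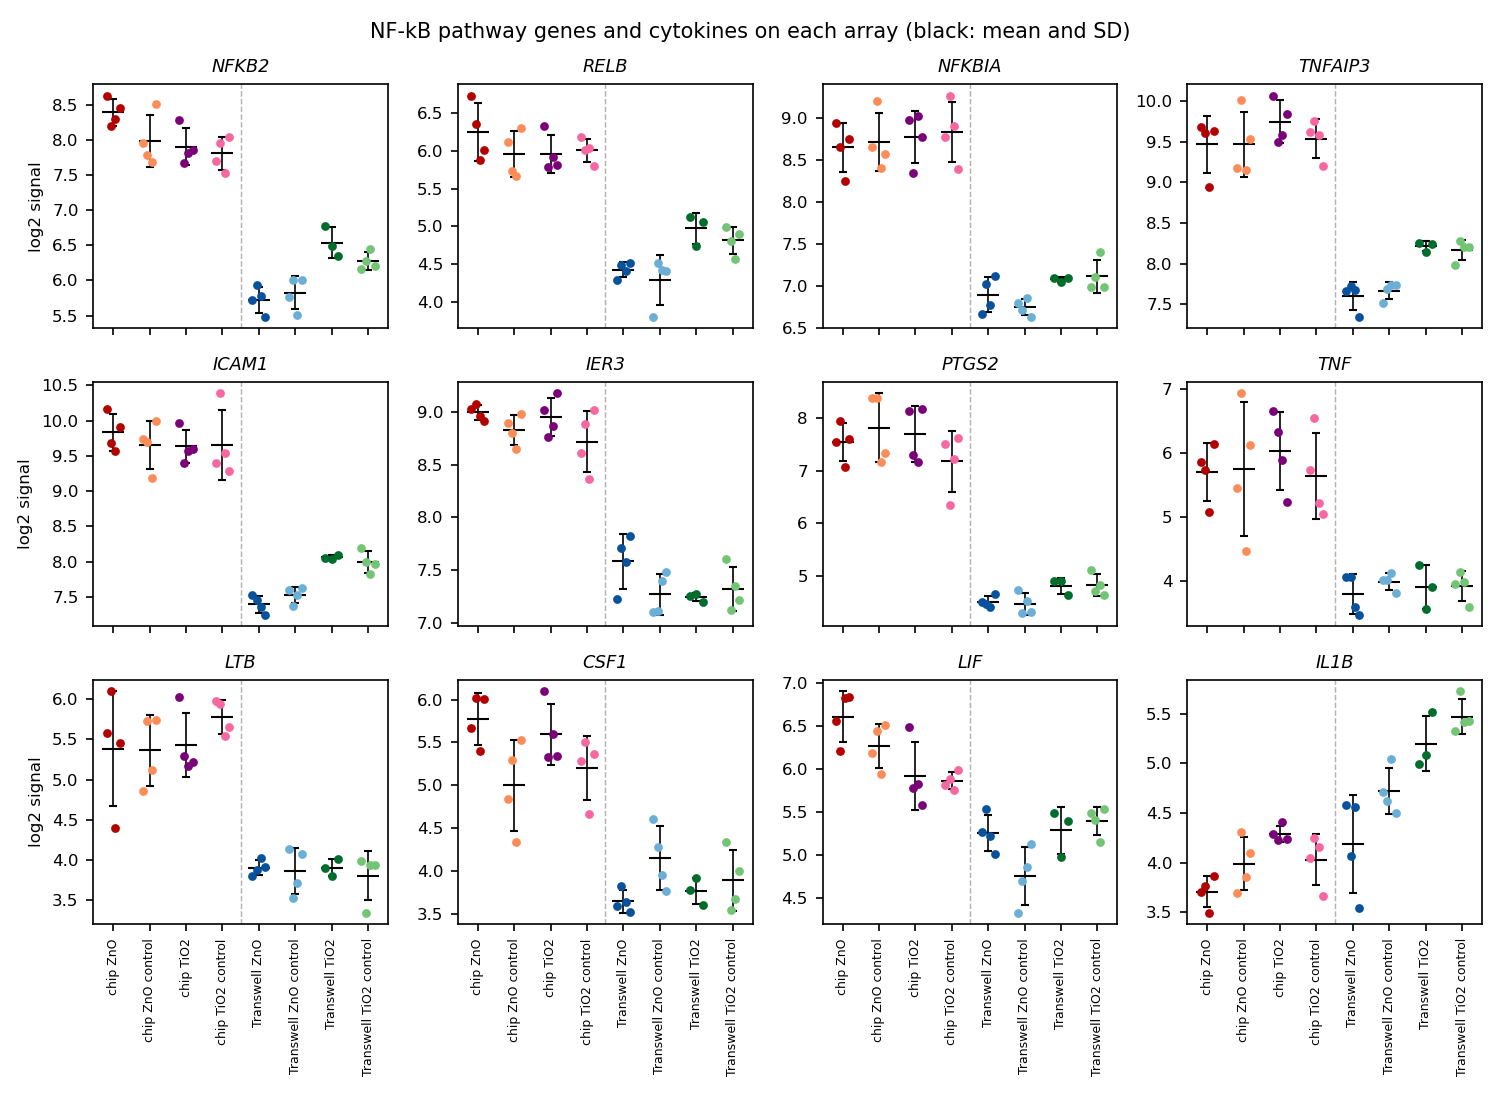
Log2 signal of 12 members on each array (points), with the mean and SD of each group in black; groups run from chip ZnO at the left to Transwell TiO2 control at the right, and the dashed line separates the chip from Transwell. In each panel except those of IL1B and CSF1 the lowest chip array lies above the highest Transwell array.

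The chemokines passed in unequal numbers of media. CCL20, the ligand of CCR6, and CXCL16, a transmembrane chemokine that binds CXCR6, were higher in the chip in all 4 media. The neutrophil attractants CXCL1, CXCL2, CXCL3, CXCL5 and CXCL8 passed in at most 1 medium each. The differences of CXCL1 and CXCL3 were above 0 in all 4 media and those of CXCL2 below 0. CXCL5 and CXCL8 were not shown above background in any group, so their results are of background signal. CXCL16, the brightest member of all, read 10.11, 9.84, 9.83 and 9.97 in the chip, against 8.65, 8.74, 8.90 and 8.48 on Transwell after ZnO. CXCL16 in TiO2 control medium read 9.62, 10.09, 9.69 and 9.55 in the chip, against 9.42, 9.27, 9.10 and 9.26 on Transwell. The groups stood apart in both, with a narrower gap in the second. CXCL16 differed by 0.47 in TiO2 control medium, 1.01 in ZnO control medium, 0.51 after TiO2 and 1.24 after ZnO (SE 0.15 to 0.16, limma adjusted p 1.56e-07 to 0.0263). The call was lost for CXCL16 in TiO2 control medium without either of Transwell TiO2 control replicate 3 and chip TiO2 control replicate 2 (0.36 to 0.42, adjusted p 0.0671 to 0.106) and for CXCL16 after TiO2 without any 1 of Transwell TiO2 replicates 1, 2 and 3 and chip TiO2 replicates 1, 2 and 3 (0.40 to 0.53, adjusted p 0.0576 to 0.106). Chip TiO2 replicate 4 was the low array among those of chip TiO2, and without it and chip TiO2 control replicate 4 together the difference after TiO2 was 0.72 (adjusted p 1.57e-04).

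CCL20 in TiO2 control medium read 8.34, 9.60, 8.39 and 7.06 in the chip, against 7.35, 7.44, 7.02 and 7.03 on Transwell. CCL20 in ZnO control medium read 7.40, 7.79, 6.89 and 7.50 in the chip, against 6.30, 6.58, 6.49 and 6.43 on Transwell. CCL20 after TiO2 read 8.73, 8.23, 8.76 and 8.51 in the chip, against 7.26, 7.35 and 7.37 on Transwell. Chip TiO2 control replicate 2 was the highest array of all and replicate 4 of that group overlapped Transwell. CCL20 after ZnO read 8.65, 7.70, 6.90 and 8.14 in the chip, against 6.24, 6.36, 6.49 and 6.84 on Transwell, with no overlap. The differences were 1.14 in TiO2 control medium, 0.94 in ZnO control medium, 1.23 after TiO2 and 1.36 after ZnO (SE 0.33 to 0.36, adjusted p 0.00188 to 0.0327). The call was lost for CCL20 in TiO2 control medium without chip TiO2 control replicate 2 (0.72, adjusted p 0.0868), for CCL20 in ZnO control medium without any 1 of Transwell ZnO control replicates 1, 3 and 4 and chip ZnO control replicates 1, 2 and 4 (0.81 to 0.96, adjusted p 0.0556 to 0.105) and for CCL20 after TiO2 without Transwell TiO2 replicate 1 (1.19, adjusted p 0.0535).

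CXCL1 read 4.38, 7.26, 5.71 and 5.53 in the chip, against 5.06, 4.87, 4.31 and 4.40 on Transwell in TiO2 control medium, the medium of its largest difference. Chip TiO2 control replicate 2 stood far above the other arrays and replicate 1 among the Transwell arrays. Its differences of 1.06 in TiO2 control medium, 0.05 in ZnO control medium, 0.65 after TiO2 and 0.29 after ZnO passed in no medium, with a 95% interval of 0.22 to 1.90 in the first. The first of them passed without chip TiO2 control replicate 1 (1.51, adjusted p 0.00555). CXCL2 had differences of -0.33 in TiO2 control medium, -0.04 in ZnO control medium, -0.38 after TiO2 and -0.98 after ZnO and was lower in the chip after ZnO alone (SE 0.25, adjusted p 0.0034), where it read 5.13, 4.77, 5.26 and 5.32 in the chip, against 5.999, 6.07, 6.28 and 6.05 on Transwell. Those groups did not overlap. CXCL3 had differences of 1.11 in TiO2 control medium, 0.43 in ZnO control medium, 0.34 after TiO2 and 0.07 after ZnO and was higher in TiO2 control medium alone (SE 0.21, adjusted p 2.68e-04), where it read 3.95, 4.72, 4.55 and 4.92 in the chip, against 3.28, 3.44, 3.48 and 3.50 on Transwell. In ZnO control medium it passed without either of Transwell ZnO control replicate 3 and chip ZnO control replicate 3 (0.60 to 0.67, adjusted p 0.0159 to 0.0457). CXCL1, CXCL2 and CXCL3 are close paralogs whose probes can share targets, so values of the single members are uncertain. Whether these chemokines differ from CCL20 and CXCL16 in their response was not tested.

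CXCL8, which encodes interleukin-8 and was the dimmest chemokine, read 2.30, 4.61, 3.22 and 2.46 in the chip, against 1.71, 1.95, 1.47 and 2.11 on Transwell in TiO2 control medium. It passed there (adjusted p 0.00293) with both group means below the array medians, and the one array clearly above them was chip TiO2 control replicate 2. CXCL8 averaged 2.17 to 3.15 in the chip groups and 1.81 to 2.04 on Transwell, and CXCL5 averaged 3.01 to 3.21 in the chip groups and 2.68 to 3.08 on Transwell. Neither was shown above background, so no fold is given.

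**Figure D3:**
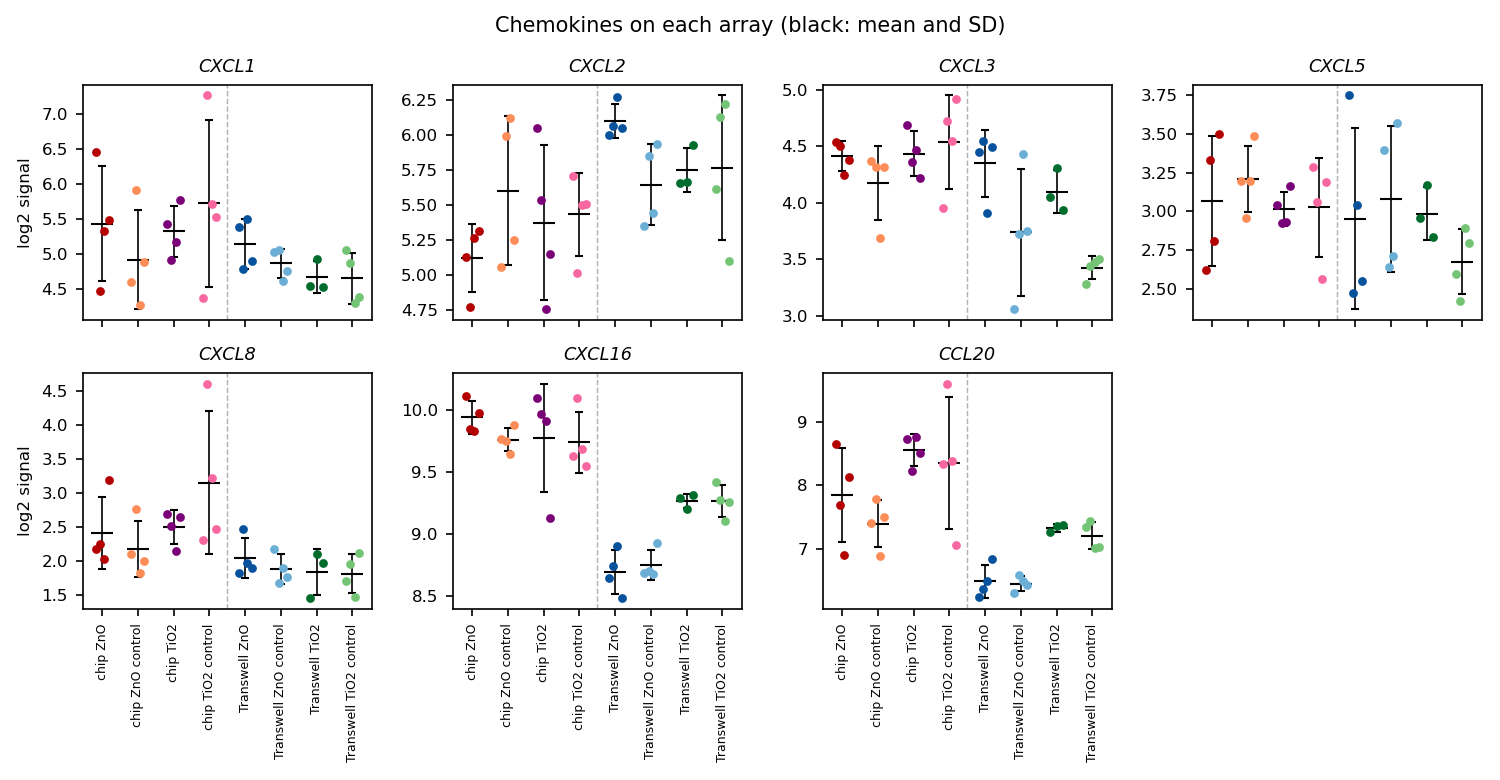
Log2 signal of the 7 chemokines on each array (points), with the mean and SD of each group in black; chip groups stand left of the dashed line and Transwell groups right of it. CXCL16 and CCL20 are higher in the chip, whereas CXCL1 and CXCL8 are spread out within chip TiO2 control, where replicate 2 reads 7.26 and 4.61.

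Of the 11 cytokines TNF, LTB, CSF1, IL32 and IL1A were higher in the chip in all 4 media and IL1B was lower in all 4. TNF encodes tumour necrosis factor, LTB encodes lymphotoxin β, the membrane partner of lymphotoxin α that signals through LTBR, and CSF1 encodes the growth factor of macrophages. TNF in TiO2 control medium read 5.73, 6.54, 5.21 and 5.04 in the chip, against 3.94, 4.14, 3.97 and 3.58 on Transwell. TNF in ZnO control medium read 5.44, 6.93, 4.46 and 6.13 in the chip, against 4.003, 4.01, 4.11 and 3.81 on Transwell. The chip arrays were widely spread and the lowest still lay above the highest Transwell array. TNF after TiO2 read 6.66, 6.32, 5.89 and 5.24 in the chip, against 4.25, 3.56 and 3.89 on Transwell. TNF after ZnO read 5.86, 5.72, 5.08 and 6.13 in the chip, against 4.05, 4.06, 3.58 and 3.47 on Transwell. The groups were apart after exposure as well. The TNF differences were 1.72 in TiO2 control medium, 1.75 in ZnO control medium, 2.13 after TiO2 and 1.91 after ZnO (SE 0.36 to 0.39, limma adjusted p 1.36e-04 to 7.09e-04), or 3.3- to 4.37-fold.

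LTB in TiO2 control medium read 5.98, 5.95, 5.55 and 5.65 in the chip, against 3.98, 3.34, 3.94 and 3.94 on Transwell. LTB in ZnO control medium read 4.86, 5.73, 5.12 and 5.74 in the chip, against 4.13, 3.53, 3.71 and 4.08 on Transwell. The groups did not overlap, and Transwell TiO2 control replicate 2 was low. LTB after TiO2 read 6.02, 5.29, 5.17 and 5.22 in the chip, against 3.90, 3.80 and 4.02 on Transwell. LTB after ZnO read 5.59, 6.10, 4.40 and 5.46 in the chip, against 3.80, 3.88, 4.03 and 3.91 on Transwell. Chip ZnO replicate 3 came nearest to the Transwell arrays. The LTB differences were 1.98 in TiO2 control medium, 1.50 in ZnO control medium, 1.52 after TiO2 and 1.48 after ZnO (SE 0.25 to 0.27, adjusted p 9.26e-07 to 1.50e-04). Both TNF and LTB are named by 8 probe sets, of which the brightest was read, and the lowest correlation between probe sets over the 31 arrays was 0.985 for TNF and 0.703 for LTB, as a description. The dimmest LTB probe set averaged 3.36 to 3.85 in the chip groups and 2.74 to 3.15 on Transwell. Its Transwell means lay below the array medians, so the size of its difference was not resolved.

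CSF1 in TiO2 control medium read 5.28, 5.51, 4.66 and 5.36 in the chip, against 4.34, 3.55, 3.67 and 4.003 on Transwell. CSF1 after TiO2 read 6.10, 5.33, 5.60 and 5.34 in the chip, against 3.78, 3.92 and 3.61 on Transwell. CSF1 after ZnO read 5.67, 6.02, 5.39 and 6.01 in the chip, against 3.59, 3.83, 3.63 and 3.53 on Transwell. These pairs of groups stood apart, and in ZnO control medium they overlapped through chip ZnO control replicate 3. The CSF1 differences were 1.31 in TiO2 control medium, 0.85 in ZnO control medium, 1.83 after TiO2 and 2.13 after ZnO (SE 0.23 to 0.25, adjusted p 3.12e-08 to 0.00601). IL32, which encodes an interleukin known to induce TNF, read 8.89, 8.28, 8.59 and 8.003 in the chip, against 7.24, 7.25 and 7.08 on Transwell after TiO2. IL32 after ZnO read 8.79, 8.08, 8.16 and 8.40 in the chip, against 6.67, 7.03, 7.003 and 6.57 on Transwell. It was apart in all 4 media, with differences of 0.80 in TiO2 control medium, 0.85 in ZnO control medium, 1.25 after TiO2 and 1.54 after ZnO (SE 0.21 to 0.23, adjusted p 1.15e-06 to 0.00534).

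The 2 interleukin-1 agonists went opposite ways. IL1A, the alarmin interleukin-1α, read 3.67, 4.68, 4.04 and 3.42 in the chip, against 2.43, 2.33, 3.22 and 2.44 on Transwell in TiO2 control medium. IL1A after TiO2 read 4.97, 3.96, 3.56 and 4.42 in the chip, against 2.45, 2.52 and 2.40 on Transwell. IL1A after ZnO read 3.01, 3.72, 2.96 and 5.33 in the chip, against 1.998, 2.68, 2.004 and 2.24 on Transwell. It averaged below the array medians in the 4 Transwell groups and above them in the 4 chip groups, so it was higher in the chip but the size of the difference was not resolved. The adjusted p ran from 0.00891 to 0.0475 over the 4 media. The call was lost for IL1A in TiO2 control medium without any 1 of Transwell TiO2 control replicates 1, 2 and 4 and chip TiO2 control replicates 2 and 3 (adjusted p 0.0559 to 0.107), for IL1A in ZnO control medium without any 1 of Transwell ZnO control replicates 1, 2, 3 and 4 and chip ZnO control replicates 1, 2 and 4 (adjusted p 0.0613 to 0.235) and for IL1A after ZnO without chip ZnO replicate 4 (adjusted p 0.0709).

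IL1B, the secreted interleukin-1β, read 4.05, 4.25, 4.16 and 3.66 in the chip, against 5.33, 5.73, 5.41 and 5.42 on Transwell in TiO2 control medium. IL1B after TiO2 read 4.29, 4.23, 4.41 and 4.24 in the chip, against 4.996, 5.08 and 5.51 on Transwell. Every chip array lay below every Transwell array in both. IL1B in ZnO control medium read 3.70, 4.31, 3.86 and 4.09 in the chip, against 4.71, 4.63, 5.04 and 4.50 on Transwell. IL1B after ZnO read 3.71, 3.76, 3.50 and 3.87 in the chip, against 4.58, 4.07, 4.56 and 3.54 on Transwell. The groups were apart in the first of these and overlapped after ZnO. The IL1B differences were -1.44 in TiO2 control medium, -0.73 in ZnO control medium, -0.91 after TiO2 and -0.48 after ZnO (SE 0.18 to 0.20, adjusted p 8.56e-07 to 0.0481). The call after ZnO was lost for IL1B after ZnO without any 1 of Transwell ZnO replicates 1, 2 and 3 and chip ZnO replicates 1, 2 and 3 (-0.52 to -0.35, adjusted p 0.0555 to 0.199). IL1RN, the antagonist of both, averaged 2.50 to 3.09 in the chip groups and 2.17 to 2.47 on Transwell, not shown above background, although it passed after TiO2 (adjusted p 0.0037).

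LIF, a cytokine of the interleukin-6 family, read 6.18, 6.44, 5.94 and 6.50 in the chip, against 4.33, 4.70, 4.86 and 5.12 on Transwell in ZnO control medium. LIF after ZnO read 6.55, 6.20, 6.82 and 6.83 in the chip, against 5.26, 5.53, 5.21 and 5.01 on Transwell. LIF in TiO2 control medium read 5.81, 5.87, 5.75 and 5.99 in the chip, against 5.48, 5.40, 5.15 and 5.53 on Transwell. The groups were apart in all 3, by less in the last. LIF passed in 3 of the 4 media, with differences of 0.47 in TiO2 control medium, 1.51 in ZnO control medium, 0.63 after TiO2 and 1.35 after ZnO (SE 0.18 to 0.20), that in TiO2 control medium being the one that did not (adjusted p 0.069). The call was lost for LIF after TiO2 without either of Transwell TiO2 replicate 2 and chip TiO2 replicate 1 (0.44 to 0.48, adjusted p 0.124 to 0.174). IL18, the inflammasome-processed cytokine and the brightest of the 11, read 8.58, 8.73, 8.53 and 8.43 in the chip, against 8.67, 9.13, 8.95 and 9.23 on Transwell after ZnO. It was lower in the chip there (-0.43, SE 0.16, adjusted p 0.038) although the arrays met at the edge of their ranges, and it did not pass in the other media, with 0.31 in TiO2 control medium, -0.24 in ZnO control medium and 0.22 after TiO2. That call was lost for IL18 after ZnO without any 1 of Transwell ZnO replicates 2, 3 and 4 and chip ZnO replicates 1, 3 and 4 (-0.44 to -0.35, adjusted p 0.0567 to 0.135).

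IL6 averaged 2.51 to 3.12 in the chip groups and 2.36 to 2.56 on Transwell, and it passed in ZnO control medium (adjusted p 6.04e-04) and after TiO2 (adjusted p 0.00815) with both group means below the array medians. The second call was lost without Transwell TiO2 replicate 3 (adjusted p 0.0511). IL15, the dimmest cytokine, read 2.91, 1.67, 2.37 and 1.88 in the chip, against 1.69, 1.84, 1.32 and 1.87 on Transwell after ZnO, where it did not pass. After ZnO, IL6 passed without chip ZnO replicate 2 (adjusted p 0.0205) and IL15 without either of chip ZnO replicates 2 and 4 (adjusted p 0.0114 and 0.0306). Neither of these was shown above background in any group.

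Of the 2 enzymes, PTGS2, which encodes the inducible cyclooxygenase of prostaglandin synthesis, had the largest difference of all members in every medium. PTGS2 in TiO2 control medium read 7.50, 6.35, 7.23 and 7.62 in the chip, against 5.11, 4.70, 4.82 and 4.63 on Transwell. PTGS2 in ZnO control medium read 8.38, 8.38, 7.17 and 7.33 in the chip, against 4.73, 4.29, 4.51 and 4.31 on Transwell. The chip arrays were far above the Transwell arrays, with chip TiO2 control replicate 2 the lowest of the chip. PTGS2 after TiO2 read 8.14, 7.30, 7.16 and 8.18 in the chip, against 4.90, 4.89 and 4.63 on Transwell. PTGS2 after ZnO read 7.54, 7.95, 7.08 and 7.59 in the chip, against 4.50, 4.45, 4.40 and 4.65 on Transwell. The separation was as complete after exposure. The PTGS2 differences were 2.36 in TiO2 control medium, 3.36 in ZnO control medium, 2.89 after TiO2 and 3.04 after ZnO (SE 0.27 to 0.29, limma adjusted p 1.72e-10 to 1.78e-07), or 5.13- to 10.2-fold. NOS2, the inducible nitric oxide synthase, read 5.26, 6.09, 5.42 and 7.27 in the chip, against 6.51, 6.09, 6.33 and 6.49 on Transwell in TiO2 control medium. It passed in no medium, with differences of -0.35 in TiO2 control medium, -0.43 in ZnO control medium, -0.37 after TiO2 and -0.70 after ZnO and a 95% interval of -1.28 to -0.12 after ZnO, where the chip arrays lay below the Transwell arrays without overlap (adjusted p 0.063). Without chip TiO2 control replicate 4, the array at 7.27, the difference in TiO2 control medium was larger and passed (-0.77, adjusted p 0.0126). That after ZnO passed without chip ZnO replicate 3 (-0.84, adjusted p 0.0365), without both replicates 4 of the chip TiO2 groups (adjusted p 0.00618) and under 3 other alternatives.

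The nanomaterials themselves moved no member past the test: 0 of 37 passed for ZnO or for TiO2 against its own control medium, in either system. Among all genes 0.272% passed for ZnO in the chip (0.237% higher and 0.0357% lower, limma), 0% for ZnO on Transwell, 0% for TiO2 in the chip and 0% for TiO2 on Transwell. Without replicate 4 of both chip TiO2 groups, 0.326% of all genes passed for TiO2 in the chip and 0.406% for ZnO in the chip, and still 0 members. At an unadjusted p below 0.05 the members numbered 7, 6, 3 and 1 of 37 in the same order, where 9.42%, 3.73%, 8.92% and 2.64% of all genes did so. The members' share was larger than that of all genes for ZnO in both systems and near it for TiO2. Of the members not below the array medians in either group, the 95% interval of the difference lay within 1 log2 unit on either side of 0 for 26 of 32 for ZnO in the chip, 28 of 30 for ZnO on Transwell, 28 of 32 for TiO2 in the chip and 30 of 31 for TiO2 on Transwell, which bounds those differences at less than 2-fold. The other members, with wider intervals or a signal not above background, are not so bounded.

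The smallest adjusted p was that of CSF1 for ZnO in the chip, which read 5.67, 6.02, 5.39 and 6.01 after ZnO, against 4.83, 5.29, 4.34 and 5.53 in ZnO control medium. On Transwell it read 3.59, 3.83, 3.63 and 3.53 after ZnO, against 4.60, 4.28, 3.96 and 3.76 in ZnO control medium. The groups overlapped in both systems, with the ZnO mean above its control in the chip and below it on Transwell. The differences were 0.78 in the chip (95% interval 0.30 to 1.25, adjusted p 0.192) and -0.51 on Transwell (adjusted p 1). The difference of the 2 responses was 1.28 (adjusted p 0.535) and did not pass. Other members with an unadjusted p below 0.05 were NFKB1 (0.33), NFKB2 (0.41), NFKBIE (0.49), BCL3 (0.33), IL32 (0.57) and IL6, which was not above background, for ZnO in the chip. On Transwell they were IER3 (0.31), CXCL3 (0.61), IL18 (0.39), LIF (0.50) and IL1B (-0.53) for ZnO and CXCL3 (0.67) for TiO2, and in the chip they were BCL3 (0.41) and, not above background, IL1RN and IL6 for TiO2. Between the systems the responses differed for 0 members (limma) for ZnO, where 0.00447% of all genes passed, and for 0 members for TiO2, where 0% did. At an unadjusted p below 0.05 there were 5 and 4 of 37 members, larger shares than the 6.01% and 5.43% of all genes.

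**Figure D4:**
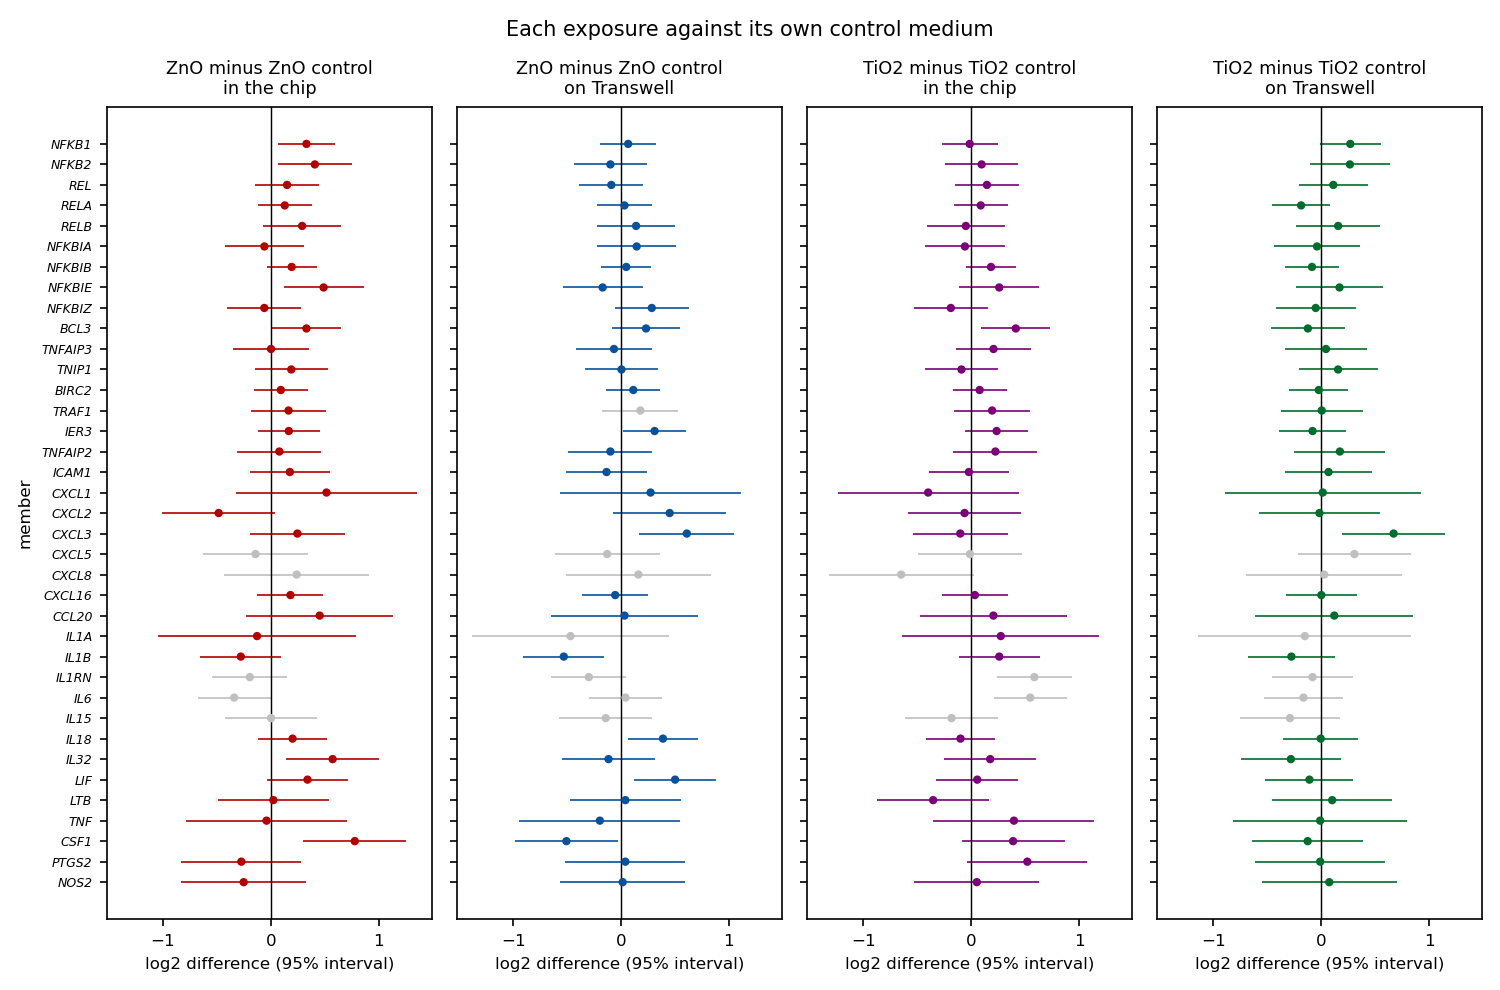
Difference in log2 signal between each nanomaterial and its own control medium (x axis, points) with its 95% interval from limma (bars) for the 37 members, in the chip and on Transwell; grey marks members with a group mean below the array medians, whose differences are of background signal. None of the members passes the test in any panel, and the CSF1 point of 0.78 for ZnO in the chip is the one with the smallest adjusted p.

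The ZnO control and TiO2 control media held no nanomaterial, yet members differed between them on Transwell. There NFKB1 was higher and IL1B, LIF and CXCL16 were lower in ZnO control medium, 4 of 37 (10.8%), near the 6.64% of all genes that passed (2.88% higher and 3.76% lower). Transwell arrays of both TiO2 groups lay at 16.8 to 29.1 on principal component 2 and those of both ZnO groups at -27.7 to -9.83. The control medium thus cannot be told apart from any other difference between the ZnO and TiO2 sets of arrays. NFKB1 read 8.14, 8.04, 7.72 and 8.02 in ZnO control medium, against 7.58, 7.42, 7.08 and 7.67 in TiO2 control medium. IL1B read 4.71, 4.63, 5.04 and 4.50 in ZnO control medium, against 5.33, 5.73, 5.41 and 5.42 in TiO2 control medium. Neither gene's groups overlapped. The differences, ZnO control minus TiO2 control, were 0.54 for NFKB1 (limma adjusted p 0.00829), -0.75 for IL1B (adjusted p 0.011), -0.64 for LIF (adjusted p 0.033) and -0.52 for CXCL16 (adjusted p 0.034). The call was lost for NFKB1 without Transwell TiO2 control replicate 3 (0.42, adjusted p 0.053), for IL1B without Transwell TiO2 control replicate 2 (-0.67, adjusted p 0.0502), for LIF without any 1 of Transwell TiO2 control replicates 1, 2 and 4 and Transwell ZnO control replicates 1, 2 and 3 (-0.67 to -0.50, adjusted p 0.0532 to 0.157) and for CXCL16 without any 1 of Transwell TiO2 control replicates 1, 2 and 4 and Transwell ZnO control replicates 1, 2 and 3 (-0.52 to -0.46, adjusted p 0.0693 to 0.0947).

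Without regard to the test, the arrays of 15 members lay wholly lower in ZnO control medium on Transwell, where 9.35% of all genes did so, and those of 3 lay wholly higher, where 8.33% did. NFKB2 averaged 5.83 ± 0.24 in ZnO control medium and 6.27 ± 0.13 in TiO2 control medium (SD, n = 4 each), and CCL20 averaged 6.45 ± 0.12 in ZnO control medium and 7.21 ± 0.22 in TiO2 control medium. Neither passed. In the chip 0 members passed between the control media (limma), where 0.058% of all genes did (0.0134% higher and 0.0447% lower). There 6 of 37 had an unadjusted p below 0.05, a larger share than the 9.69% of all genes. Without chip TiO2 control replicate 4, and likewise without it and chip TiO2 replicate 4 together, 2 members passed there. With both left out these were CCL20 (-1.38, adjusted p 0.014) and NOS2 (0.99, adjusted p 0.0132). The chip effect itself differed between the control media for LIF alone, by 1.05 (SE 0.26, limma adjusted p 0.0271). That was 1 of 37 members (2.70%), near the 2.74% of all genes that passed. NFKB1 passed for that difference without Transwell TiO2 control replicate 4 or without Transwell ZnO control replicate 3 (-0.70 to -0.69, adjusted p 0.044 to 0.048), and IL6, not above background, without chip ZnO control replicate 4 (adjusted p 0.0291). LIF was 1.51 higher in the chip in ZnO control medium and 0.47 in TiO2 control medium, and the call was lost for LIF without any 1 of Transwell TiO2 control replicate 4, Transwell ZnO control replicates 1 and 2, chip TiO2 control replicate 3 and chip ZnO control replicate 4 (0.90 to 1.03, adjusted p 0.0516 to 0.0728).

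Genes that feed into NF-kB passed the test in both directions. Of 28 measured receptors, adaptors and kinases upstream of NF-kB, 5 were higher and 4 lower in the chip in TiO2 control medium, 6 and 5 in ZnO control medium, 4 and 5 after TiO2, and 7 and 7 after ZnO. In all 9, 11, 9 and 14 of the 28 passed (32.1%, 39.3%, 32.1% and 50.0%), beside 22.9%, 27.2%, 18.2% and 29.8% of all genes. With genes seldom above the array medians filtered out, 33.4%, 39.3%, 27.0% and 42.5% of all genes passed, which lies nearer to the shares of this list. The list itself was not counted under that filter. TNFRSF12A, the receptor of TWEAK, was higher in all 4 media (1.80 to 2.55 log2), as were MAP3K14, which encodes the kinase NIK (0.82 to 1.35), and CYLD, a deubiquitinase that dampens the pathway (0.81 to 1.24). TLR2, a receptor of bacterial lipoproteins, was lower in all 4 (-1.45 to -0.68), and so was MYD88, the adaptor of Toll-like and interleukin-1 receptors (-1.02 to -0.60). The median difference of these 28 lay between -0.03 and 0.04 over the 4 media, beside -0.01 to 0.02 for all genes.

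Other known targets of NF-kB were mostly higher in the chip. Of 18 measured, 10 were higher and 1 lower in TiO2 control medium, 12 and 0 in ZnO control medium, 11 and 0 after TiO2 and 12 and 0 after ZnO, with medians of 0.69, 0.72, 0.86 and 0.94. The shares that passed were 61.1%, 66.7%, 61.1% and 66.7%, against 22.9%, 27.2%, 18.2% and 29.8% of all genes. With genes seldom above the array medians filtered out, 33.4%, 39.3%, 27.0% and 42.5% of all genes passed. This list, like the members and the other lists, was chosen with earlier results of these data known, so its shares are no independent support. TAP1, a peptide transporter of antigen presentation, differed by 1.29 to 2.57, IRF1, a transcription factor of the interferon response, by 1.39 to 2.40, and PLAU, the urokinase, by 1.40 to 2.03. ZC3H12A, which encodes the endonuclease Regnase that degrades cytokine mRNA, differed by 0.98 to 1.79 and MAP3K8, which encodes a kinase held by p105, by 1.06 to 1.53, all of them past the test in all 4 media.

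Of 26 other cytokines and chemokines, 4 were higher and 1 lower in TiO2 control medium, 7 and 1 in ZnO control medium, 4 and 1 after TiO2 and 6 and 2 after ZnO. These were 19.2%, 30.8%, 19.2% and 30.8% of the list, near the 22.9%, 27.2%, 18.2% and 29.8% of all genes that passed. IL23A, a subunit of interleukin-23, was higher in all 4 media (1.46 to 2.62), as were CCL5, a T cell attractant (1.18 to 1.48 outside TiO2 control medium, where its Transwell mean was below the array medians), and IL12A, a subunit of interleukin-12 (0.55 to 0.86 outside the TiO2 exposure, where its Transwell mean was), and TNFSF10, which encodes the death ligand TRAIL, was lower (-1.90 to -1.32). Of 17 cytokine and chemokine receptors, 7 were higher and 1 lower in TiO2 control medium, 9 and 1 in ZnO control medium, 7 and 2 after TiO2 and 9 and 0 after ZnO, or 47.1%, 58.8%, 52.9% and 52.9% of the list. IL4R differed by 0.77 to 0.94, IFNGR1 by 0.55 to 0.99 and IL6ST, the signalling subunit shared by interleukin-6 and LIF, by 0.66 to 0.88, each past the test in all 4 media.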

How the data were processed

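Total RNA of 31 Caco-2 samples was read on Affymetrix whole-transcript arrays, from 100 ng each, per the labels' protocols. The authors deposited log2 values made with RMA, as the submitters' processing notes state. Neither an RMA version nor a genome build is given in the sources used here. The method equalises the distributions of the arrays, so a shift common to all genes would not show. The number of arrays limits the precision.

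The value table held 53617 probe sets, of which 23871 named 1 gene, 1842 several and 27904 none in the platform annotation. Gene identifiers gave current symbols for 22569 probe sets in the RefSeq table of GRCh38.p14, and 1 probe set per gene, the brightest, left 22395 genes (632 had several). Samples were grouped by their labels.

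All tests used limma 3.58.1 under R 4.3.3, with 1 mean per group over all 8 groups (23 residual degrees of freedom, prior 4.77) and Benjamini-Hochberg adjustment over all genes in each of 13 comparisons. Calls have an adjusted p below 0.05. The script was tested on simulated data. Members, lists and tests were chosen with earlier results of these data known. Every passing member is named with its difference, except IL1A, TRAF1 in ZnO control medium, CXCL8, IL6 and IL1RN, whose passing differences rest on a group below the array medians and have no size printed, and values of every array are given for those whose groups do not overlap, at most 12 per comparison by size, and for the brightest and dimmest member of each role. Genes outside the set are at most 4 per list and comparison, by smallest p among those that pass. Alternatives changed the spread model, weights, filter, probe sets, normalisation, block and arrays. Samples were not paired by replicate number, whose meaning the labels do not give. In the comparisons of 2 groups, 0 same-numbered pairs had a correlation above 0.1 between their deviations from the group means. With so few arrays this cannot show that same-numbered arrays shared no culture or run.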

Additional observations from a re-analysis of the deposited data

Results flagged for a closer look

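In 259 combinations of a member and a group of 4 arrays, 14 arrays lay apart from the other 3 by Dixon's criterion at the 95% level, and chance marks about 1 in 20 such groups. Among subunits and feedback regulators these were RELB in Transwell ZnO control replicate 1 at 3.80, NFKBIB in chip TiO2 control replicate 3 at 7.15, NFKBIE in Transwell TiO2 control replicate 3 at 5.29, TNFAIP3 in chip ZnO replicate 3 at 8.94 and in Transwell ZnO replicate 4 at 7.34, and TNIP1 in Transwell ZnO control replicate 2 at 6.99. Among targets and chemokines they were TNFAIP2 in chip TiO2 replicate 1 at 6.03 and in chip ZnO replicate 3 at 5.05, CXCL3 in chip ZnO control replicate 3 at 3.69 and in Transwell ZnO replicate 3 at 3.91, and CXCL16 in Transwell ZnO control replicate 4 at 8.93. Among cytokines they were IL1A in Transwell TiO2 control replicate 3 at 3.22, and LTB in chip TiO2 replicate 1 at 6.02 and in Transwell TiO2 control replicate 2 at 3.34. All are log2 values.

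The chip effect on LIF differed between the ZnO control and TiO2 control media by 1.05 log2 (limma adjusted p 0.0271, 95% interval 0.51 to 1.58), the one member for which that difference passed. This is 1 of 37 members (2.70%), near the 2.74% of all genes that passed. With each of 16 arrays left out in turn the call was lost in 5 cases, and over all probe sets 0 members passed.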

How the results depend on the processing

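No call on a member changed direction under any alternative run. Under the 11 alternatives other than leaving out 1 array, 1090 of 1120 values kept direction and side of the threshold and 30 fell short of it. With 1 array left out, 720 of 801 did and 81 fell short, and such losses are given beside the genes. Differences that did not pass in the reported fit passed in 19 cases with 1 array left out, given beside the genes, and in 47 under the other alternatives. Of these 47, NFKB1 after TiO2 passed with an intensity trend, array weights, the filter on dim genes and the replicate block (adjusted p 0.0258 to 0.0467), and NOS2 after ZnO with array weights, only the groups compared, the filter and without replicate 4 of both chip TiO2 groups. The number of members that passed for chip against Transwell, with 1 array left out in turn, ran from 18 to 23 in TiO2 control medium (main 22, lowest without chip TiO2 control replicate 2), from 20 to 26 in ZnO control medium (main 25), from 20 to 24 after TiO2 (main 23) and from 24 to 28 after ZnO (main 27). It stayed at 0 for each exposure and each difference of responses. Between the control media it ran from 0 to 2 in the chip (2 without chip TiO2 control replicate 4), from 1 to 4 on Transwell (1 without Transwell TiO2 control replicate 2), and from 0 to 2 for the difference of the chip effect.

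On Transwell, ZnO control against TiO2 control gave 11 with array weights, 9 with only the groups compared and 2 over all probe sets, against 4. In the chip it gave 2 without replicate 4 of both chip TiO2 groups, against 0. The difference of the chip effect, 1 in the reported fit, became 2 with an intensity trend, 2 with only the groups compared, 3 with a filter on dim genes, 0 over all probe sets, 2 with the replicate block and 2 without replicate 4 of both chip TiO2 groups. The cause was not tested, apart from the larger number tested over all probe sets. With the replicate number as a block, chip against Transwell gave 23, 24, 24 and 27 members in the order above, and each exposure gave 0. The labels do not say what same-numbered arrays share. Probe sets near the array medians limit what the dim members can show.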
